A study of Gallus gallus with 24 samples.

Results

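In chick embryonic ventricles, 28 probe sets fell at least 2-fold between embryonic days 4 and 6 and again by at least 2-fold between days 6 and 10. They were chosen from 38535 probe sets on the array. Eligible probe sets had IDs that start with Gga and a highest pool mean of at least 6 on the log2 scale. Their normal left and right ventricles lay within 0.7 of each other on the log2 scale at days 6, 8 and 10, and banded and normal ventricles within 0.7 at day 5. Of 37693 probe sets with such IDs, 14089 met these limits. Among those, 77 fell by at least 1 on the log2 scale from day 4 (E4) to day 6 (E6), and 235 fell by at least 1 from E6 to day 10 (E10). The 28 that did both were 36.4% of the early falls, 11.9% of the late falls and 0.199% of the probe sets within the limits. Because these values chose the members, the falls are described here and carry no test.

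The study profiled ventricles of normal chick embryos and of embryos operated on at day 4. Conotruncal banding (CTB) narrows the outflow tract, and left atrial ligation (LAL) diverts inflow from the left side of the heart. Tissue of 6 to 12 specimens was combined into 1 pool per condition. A pool was run on 2 arrays, so every level below is a pool mean with n = 1 and its SD is technical. The 12 pools were ligated left and ligated right ventricles at day 8 (E8), banded ventricles of both sides at day 5 (E5), normal ventricles of both sides at E4, E5 and E6, and normal left and normal right ventricles at E6, E8 and E10. No breed, genotype or sham operation was given for any pool, so ligation or banding and the operation itself cannot be told apart. Stage means were the E4 and E5 pools, the mean of the 3 normal E6 pools, and the means of left and right at E8 and E10. As these are bulk samples, fewer cells of a type and less RNA per cell cannot be told apart.

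Between these ages the chick ventricle passes from a thin trabeculated wall to a thicker compact wall, is covered by epicardium, and is divided into left and right chambers. Neural crest cells reach the outflow region over this period, and primitive red cells in the blood are replaced by definitive ones. The members encode proteins of several kinds, among them neurofilaments, cell surface adhesion molecules, transcription regulators, nuclear chaperones and metabolic enzymes.

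The 24 arrays had medians between 4.03 and 4.15 on the log2 scale. All 13 measured cardiomyocyte markers passed the low-signal filter, which required a highest pool mean of at least 4.09. Their summed level lay between 18.36 and 18.56 on the log2 scale in the 12 pools, and none of them had an early or a late fall. Of the other marker lists, the 6 measured erythroid markers summed to 17.08 at E4 and to 16.43 and 16.47 in left and right ventricles at E10. For macrophages, 2 of 5 measured markers passed the filter, and for neural crest 0 of 5 did. A summed level mainly follows the highest genes of its list. The part of these cell types in the falls was not tested.

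Of the 28 members, 25 were annotated to a gene and 3 had no gene listed. The 25 covered 22 genes, because NEFM, SQLE and PRPS2 each held 2 members. The early log2 differences, E6 minus E4, ran from -3.04 to -1.003, with a median of -1.47. The late differences, E10 minus E6, ran from -3.56 to -1.01, with a median of -1.48. Both differences share the E6 mean. Over the whole period the difference E10 minus E4 lay between -5.70 and -2.26, which is a 4.78-fold to 52.0-fold higher linear level at E4, with a median of 9.41-fold.

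The membership limits cut through a continuous spread of values. Just inside, one SQLE member had an early difference of -1.003 and FAAP24 a late difference of -1.01. Just outside lay an EPCAM probe set, with -0.99 early and -1.09 late, and JAG1, with -0.98 early and -3.31 late. With the limits on side and banding set aside, 110 probe sets had both falls. The 82 that were left out comprised 79 past the side limit and 3 past the banding limit only. LHX9, PRTG and PRPS2 each had a further probe set among those 82.

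The widest fall of all members belonged to NEFM, the medium subunit of the neurofilament that fills large axons. Its first member probe set measured 11.45 at E4 and 9.21 at E5 on the log2 scale. At E6 it measured 9.0 in the pool of both ventricles, 9.42 in left and 9.52 in right ventricles. At E8 the left and right ventricles gave 7.10 and 7.39, and at E10 they gave 5.47 and 6.03. The E5 and E6 pools overlapped, while every E8 pool lay below them and every E10 pool below E8. The second NEFM member, whose ID ends in _s_at, had stage means of 8.51, 5.65, 5.47, 4.91 and 4.37 from E4 to E10, so more of its fall came early. Its suffix marks probes shared by several transcripts. NEFL, the light subunit, lay just short of the early limit with -0.93 from E4 to E6 and had -2.74 from E6 to E10.

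Several members encode proteins of the cell surface. PCDH8, a protocadherin that takes part in cell adhesion, measured 8.91 at E4 and 8.53 at E5. At E6 its levels were 7.64 in the pool of both ventricles, 7.63 in left and 7.13 in right ventricles. The E8 values were 6.46 in left and 6.53 in right ventricles, and the E10 values 4.16 and 3.70. The level of PCDH8 thus dropped little before E5, and its widest step was from E8 to E10.

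PRTG, protogenin, an immunoglobulin superfamily membrane protein of early embryonic tissues, measured 8.52 at E4, 6.30 at E5, between 6.34 and 6.76 in the 3 E6 pools, 3.94 and 4.49 in left and right at E8, and 3.35 and 3.67 at E10. Its log2 differences were -1.95 early and -3.07 late. SLITRK4, a leucine-rich repeat membrane protein of neurons, had differences of -1.25 early and -2.59 late. The E10 levels of SLITRK4, 3.13 in left and 3.01 in right ventricles, were below the filter level of 4.09. In both genes every normal E8 and E10 pool lay below every normal pool of E6 and before.

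TIMD4, a phosphatidylserine receptor known from macrophages, had stage means of 8.10, 5.98, 6.25, 3.84 and 3.14 from E4 to E10. The summed level of the 2 macrophage markers that passed, CSF1R and CD74, was 10.94 in left and 10.71 in right ventricles at E10, against 10.59 at E4. CSF1R alone measured 8.26 in left and 8.64 in right ventricles at E10, against 8.62 at E4, and the part of macrophages in the TIMD4 levels was not tested. GIMAP1-GIMAP5, annotated to the GTPases of immunity-associated proteins, had stage means of 6.77, 5.83, 5.37, 5.04 and 4.12. CD38, an ectoenzyme that consumes NAD, had stage means of 6.11, 4.01, 4.18, 3.51 and 3.03, and 4.63 in the E6 pool of both ventricles. All 3 genes had E10 levels near or under the filter level.

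LGR5, a receptor for R-spondins in the Wnt pathway, had stage means of 6.14, 4.65, 4.94, 4.61 and 3.84 from E4 to E10. Its SD between arrays reached 0.49 in the right ventricle at E10, and its E5, E6 and E8 levels overlapped within such a spread. LGR4, a related receptor, differed by 0.14 early and by -0.11 late. LRRC8D, a subunit of volume-regulated anion channels, had stage means of 7.11, 5.19, 5.13, 4.05 and 4.02. The subunits LRRC8A, with 0.33 early and 0.02 late, and LRRC8C, with 0.00 early and -0.02 late, had neither fall.

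Transcription regulators made up a further group. LHX9, a LIM homeodomain factor required for gonad formation in mouse, measured 8.55 at E4 and 6.46 at E5. At E6 it gave 6.12 in the pool of both ventricles, 6.22 in left and 6.89 in right ventricles. The left and right ventricles gave 4.09 and 4.34 at E8, and 3.78 and 3.20 at E10. LHX9 fell by 5.07 on the log2 scale over the whole period, and its 2 left E10 arrays had an SD of 0.82. GFI1B, a repressor needed for erythroid and megakaryocyte development, had stage means of 7.27, 6.36, 5.51, 4.27 and 4.34. Its E10 mean was not below its E8 mean. The erythroid list did not have an early fall in any of its 6 measured genes. HBE and HBZ had late differences of -1.91 and -3.51, while those of SLC4A1, HBAD, HBA1 and TAL1 were -0.69, -0.07, -0.02 and 0.01.

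TLE3, a Groucho family corepressor, measured 9.22 at E4 and 8.92 at E5. In the E6 pools it gave 8.75 in both ventricles, 7.82 in left and 7.91 in right ventricles, so the E6 pool of both ventricles lay with E5 and the single ventricles lay lower. The E8 values were 7.47 and 7.23 in left and right, and the E10 values 6.88 and 6.66. Of its relatives, TLE1 differed by -0.65 early and -0.49 late, and TLE4 by -0.26 early and -0.29 late.

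Nuclear and DNA-related members were NPM3 and FAAP24. NPM3, a nucleoplasmin family histone chaperone, had stage means of 11.66, 9.84, 9.86, 9.01 and 8.29 from E4 to E10. NPM1 differed by 0.01 early and -0.12 late, and NPM2 by -0.05 and -0.02. FAAP24, a DNA-binding partner in the Fanconi anaemia core complex, had stage means of 9.06, 7.56, 7.79, 6.96 and 6.78. Its late difference of -1.01 was the narrowest of the members. None of the 30 cell cycle genes that passed the filter had an early or late fall, and their median early difference was -0.26.

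Among the metabolic members, SQLE, squalene epoxidase of the cholesterol pathway, was measured by a pair of probe sets. The first SQLE member measured 10.65 at E4 and 9.17 at E5. Its E6 values were 9.51 in the pool of both ventricles, 9.40 in left and 10.03 in right ventricles. It gave 8.71 and 9.25 in left and right at E8, and 8.34 and 8.07 at E10. The second SQLE member, whose ID ends in _s_at, had stage means of 9.17, 7.64, 7.89, 7.32 and 6.52. In both, the level at E5 was below that at E6.

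Other genes of sterol synthesis form a list put together after the members were known. Of its 14 genes that passed the filter, SQLE among them, 12 were lower at E6 than at E4 and lower at E10 than at E6, 4 had an early fall of at least 1, 3 had a late fall, and SQLE, LSS and NSDHL had both. LSS, lanosterol synthase, differed by -1.39 early and -1.31 late, and NSDHL, a sterol dehydrogenase, by -1.36 and -2.20. The list's median differences were -0.52 early and -0.64 late, beside -0.02 and -0.04 over the 20335 probe sets that passed the filter. Of those 20335, 6660 were lower at both steps and 0.561% had both falls.

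BHMT2, a methyltransferase that makes methionine from homocysteine, had stage means of 12.57, 11.61, 11.50, 10.85 and 10.31 and the narrowest whole fall, -2.26. AP1S3, the small subunit of a clathrin adaptor of the trans-Golgi network and endosomes, had stage means of 7.74, 6.14, 6.43, 5.27 and 4.98. VOPP1 had stage means of 10.70, 9.15, 9.08, 7.68 and 6.60. TPD52L1, of the tumor protein D52 family, measured 7.13 at E4, 5.95 at E5, between 5.85 and 6.02 in the E6 pools, 4.63 and 4.80 in left and right at E8, and 3.50 and 3.43 at E10. The levels of VOPP1 and TPD52L1 were flat from E5 to E6 and dropped at each of the other steps.

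Of the loci without an assigned function, LOC419677 had stage means of 8.97, 8.56, 7.73, 6.28 and 4.19 and LOC420807 of 8.99, 7.71, 7.92, 7.33 and 6.28. Of the 3 probe sets with no gene listed, the first had stage means of 8.21, 6.24, 6.28, 4.67 and 4.68, with no drop after E8. The second such probe set had stage means of 7.0, 5.79, 5.44, 4.73 and 3.62, and its 2 arrays of the right E10 pool had the widest SD among members, 1.04. The last, with an ID that ends in _x_at, had 8.46, 7.62, 7.38, 6.66 and 6.12, and its suffix marks probes that may match other sequences. The median SD between arrays over members and pools was 0.08. All 28 members had every E10 array below both E4 arrays, which follows from the falls that chose them and does not support those falls.

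PRPS2, phosphoribosyl pyrophosphate synthetase, which makes a precursor of nucleotides, followed another course. The first PRPS2 member measured 7.04 at E4 and 2.56 at E5. In the E6 pools it measured 6.98 in both ventricles, against 2.73 in left and 2.55 in right ventricles. At E8 and E10 all 4 normal pools lay between 2.54 and 2.59. The level was therefore high in 2 of the 9 normal pools and under the filter level of 4.09 in the others. The second PRPS2 member measured 5.81 at E4, 2.99 at E5, 6.91 in the E6 pool of both ventricles, 3.09 and 2.95 in the left and right at E6, and 2.99 to 3.07 in the 4 later pools. It was the only member whose highest pool was not E4. A further PRPS2 probe set, which is no member, had a like course with 7.80 at E4, 3.44 at E5, and 7.71, 4.41 and 2.89 in the E6 pools of both, left and right ventricles.

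The E6 pool of both ventricles also differed from the single ventricles in liver markers. Albumin (ALB) measured 9.07 in the E6 pool of both ventricles, against 3.70 in left and 3.90 in right ventricles at E6, and 4.04 at E4. In the normal E10 pools ALB measured 7.61 in left and 6.55 in right ventricles, where the PRPS2 members lay between 2.58 and 3.07. Of the other measured liver markers, TTR gave 6.12 and 3.48 there in left and right, FGB 4.00 and 3.12, and APOA1 10.40 and 10.86. In the E6 pools of both, left and right ventricles TTR gave 10.54, 7.04 and 2.73. FGB there gave 8.62, 4.03 and 3.33, and APOA1 10.90, 10.88 and 10.35. At E4 TTR gave 5.98, FGB 3.57 and APOA1 10.36, and at E5 3.37, 3.47 and 10.49. The summed level of the 4 measured liver markers was 12.08 in the E6 pool of both ventricles, against 11.00 and 10.39 in the left and right E6 pools, and 10.45 at E4. The part of the liver markers in the PRPS2 values was not tested. For the other 26 members, the E6 pool of both ventricles minus the mean of left and right lay between -0.62 and 0.89 with a median of 0.03, and the highest value belonged to TLE3. For PRPS2 it was 4.33 in the first member and 3.89 in the second.

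With the early step taken from the pools of both ventricles and the late step from single ventricles, 22 of the 28 members had both falls. The 6 that did not were both PRPS2 members, LOC419677 with an early difference of -0.86, TLE3 with -0.47, BHMT2 with -0.90, and CD38 with a late difference of -0.92. Array 1 alone gave both falls in 26 of the 28, and array 2 alone in 25. The means of these same arrays chose the members, so these counts do not support the falls.

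The membership rule set no limit on the size of the stage means at E5 and E8, and these set the members apart. Its limits at those ages were on banded minus normal at E5 and on left minus right at E8. By E5 all 28 members were below E4, 21 of them by at least 1. The rule chose members with a high E4, so a lower E5 was likely in advance and does not support the early fall. No such share was taken for the 14089 probe sets within the limits. The share of the early fall passed by E5 had a median of 101% and ran from 26.4% to 188%, where values over 100% mean that the level was lower at E5 than at E6. Between E5 and E6, 22 members changed by less than 0.7, the 2 PRPS2 members were at least 0.7 higher at E6, and PCDH8, LOC419677, TLE3 and GFI1B were at least 0.7 lower. In these 4 the share passed by E5 was 26.4% for PCDH8, 33.4% for LOC419677, 28.7% for TLE3 and 51.5% for GFI1B.

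The share of the late fall passed by E8 had a median of 57.6%, with a range from 26.2% to 106%. All 28 members were lower at E8 than at E6, 14 of them by at least 1. From E8 to E10, 24 members were lower at E10, 7 by at least 1, and 4 were not lower. The rule chose a high E6 and a low E10, so E8 levels between them were likely in advance. These counts do not support the late fall, and no share over other probe sets was taken. In 19 members the wider part of the late fall lay before E8, and in 9 it lay after E8. No measure of early against late timing over the 28 members is given. GFI1B had 51.5% of the early fall by E5 and all of the late fall by E8, with E8 and E10 levels near the filter level. LGR5 had 124% of the early fall by E5 and 29.9% of the late fall by E8. Its E5, E6 and E8 levels overlapped within the spread between arrays. With the E5 and E8 levels from 1 pool or 1 pair of pools, these shares have no replicate check.

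Median levels over the 28 members were 8.49 at E4, 6.33 at E5, 6.42 at E6, 4.97 at E8 and 4.26 at E10 on the log2 scale. At E10 the stage means of 12 members were under the filter level of 4.09, and at E8 those of 6. For such members the size of the fall can depend on the floor of the array signal.

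The member genes had 25 further probe sets on the array. Of these, 11, from 9 genes, passed the low-signal filter and 14 did not. All 11 were lower at E6 than at E4, 9 of them by at least 1, and 9 were lower at E10 than at E6. The 3 with both falls were 1 of LHX9, with -1.69 early and -4.68 late, 1 of PRTG, with -1.60 and -3.76, and the further PRPS2 probe set, with -2.80 and -2.23. The further SLITRK4 probe set had -0.88 early and -4.02 late, and that of LRRC8D had -0.85 and -1.24. The exceptions to the late fall were a TLE3 probe set, which differed by 0.86, and a VOPP1 probe set, which was 0.00 apart and under the filter level after E4. A probe set that passed the filter only through E4 had to be lower later, so these counts do not support the falls.

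On the probe side, 14 of the 28 member IDs began with GgaAffx, 50%, against 36.8% of the 14089 probe sets within the limits. The suffixes that mark shared probes were carried by 4 members with _s_at, 1 with _x_at and 1 with _a_at. Among the 14089 probe sets within the limits, 4275 carried _s_at, 149 _x_at and 1193 _a_at. All 22 member genes were found in the current RefSeq gene table, and no pair of them lay within 10 genes of each other. None of the 14 gene lists of cell types and pathways held a member gene. The Wnt, FGF, BMP and Notch list had 0 early and 8 late falls among 15 genes that passed the filter, and the cushion mesenchyme list 3 early and 5 late among 8. Cardiac transcription factors had 3 early and 1 late fall among 13, chromatin and RNA-binding genes of the early embryo 0 and 2 among 8, and oxidative metabolism 0 and 0 among 7. Endothelial markers had 0 and 1 among 8, epicardial markers 1 and 0 among 4, and smooth muscle markers 1 and 1 among 4. Of 122 genes on all 14 lists that passed the filter, each counted by 1 probe set, 8 had an early fall, 22 a late fall and 3 both. The 3 were COL2A1, MSX1 and MYH11, a cartilage collagen, a homeodomain factor of cushion mesenchyme and smooth muscle myosin. All 3 were past the limit on side. A further probe set of UPK1B, an epicardial marker counted here by another probe set, also had both falls. It differed by -5.60 early and -1.17 late and was past the limits on side and banding.

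For left atrial ligation, the membership rule used the ligated pools only in the highest pool mean. It used the normal E8 pools, the other arm of this comparison, in the limit on side. In the left ventricle, 25 of the 28 members were higher in the ligated than in the normal pool at E8 and 3 were lower, with a median log2 difference of 0.34 and a range from -0.59 to 1.87. In the right ventricle, 17 were higher and 11 lower, with a median of 0.05 and a range from -0.87 to 1.18. Over the 20335 probe sets that passed the filter, the medians were 0.00 in both ventricles, and 50% were higher in ligated left and 50.2% in ligated right ventricles. Among 152 probe sets within the same limits that fell only late, 78.3% were higher after ligation in left and 73.7% in right ventricles. Among 38 that fell only early, 31.6% and 47.4% were. With 1 pool per arm no test of these shares was made.

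TPD52L1 was higher after ligation in both ventricles. It measured 5.80 in the ligated left ventricle, against 4.63 in the normal left, and 5.98 in the ligated right, against 4.80 in the normal right. Its differences were 1.17 and 1.18, and both ligated levels lay near the 5.85 to 6.02 of the E6 pools. The first NEFM member measured 8.61 in the ligated left ventricle, against 7.10 in the normal left, and 7.92 in the ligated right, against 7.39 in the normal right. Its differences were 1.51 and 0.53. The second NEFM member differed by -0.20 in left and 0.02 in right ventricles, so the NEFM probe sets did not move alike.

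The first probe set with no gene listed measured 6.07 in the ligated left ventricle, against 4.69 in the normal left, and 5.56 in the ligated right, against 4.64 in the normal right. The second PRPS2 member measured 4.87 in the ligated left, against 3.0 in the normal left, and 3.01 in the ligated right, against 2.99 in the normal right. Of these levels only that of the ligated left was above the filter level of 4.09. With a floor at the 50th percentile its left difference of 1.87 was 0.77. The first PRPS2 member gave 3.46 in the ligated left, against 2.58 in the normal left, both under the filter level. LGR5 was lower in both ventricles, with 3.89 in the ligated left, against 4.48 in the normal left, and 3.87 in the ligated right, against 4.74 in the normal right. Its right difference of -0.87 was -0.31 without array 1 and -1.43 without array 2, and both ligated levels of LGR5 were under the filter level.

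By a rule of at least 2-fold between pool means with duplicate arrays that do not overlap, 4 of the 28 members were higher in the ligated left ventricle, the first NEFM member, TPD52L1, the first probe set with no gene listed and the second PRPS2 member. The same rule called 2.54% of the 20335 filtered probe sets higher, and 0.596% of the 14089 within the limits. It called 0 members lower, against 1.66% of the filtered probe sets and 0.958% of those within the limits. In the right ventricle it called TPD52L1 alone higher, beside 1.98% of the filtered probe sets and 0.539% of those within the limits. There it called 0 members lower, beside 2.19% and 0.894%. The right difference of TPD52L1, 1.18, was 1.59 without array 1 and 0.77 without array 2. Without array 2 the one member called higher there was the first probe set with no gene listed, with 1.04, and LGR5 was called lower.

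Liver markers moved with ligation. The 4 measured liver genes, ALB, TTR, APOA1 and FGB, passed the filter, and their summed level was 12.91 in the ligated left ventricle, against 10.41 in the normal left, and 11.84 in the ligated right, against 10.71 in the normal right. ALB alone measured 11.45 in the ligated left, against 4.1 in the normal left, and 8.65 in the ligated right, against 4.56 in the normal right. The part of these markers in the ligation differences was not tested. Single markers of other cell types moved too, while their summed levels differed little. These sums mainly follow the highest genes, so they cannot show changes in lower ones. In the normal left ventricle at E8, POSTN of the cushion mesenchyme list measured 14.33 and MYLK of the smooth muscle list 13.72. The 8 cushion mesenchyme markers that passed the filter summed to 15.05 in the ligated left ventricle, against 15.10 in the normal left, and to 15.09 in the ligated right, against 15.05 in the normal right. Within that list, ligated minus normal was 2.98 in left and 0.43 in right ventricles for PRRX1, and 2.35 and -0.69 for MSX2. It was 1.07 and -0.33 for TWIST1, 0.17 and 1.07 for HAPLN1, and 0.62 and -0.94 for MSX1. The rest were flat or lower, POSTN with -0.01 and 0.08, VCAN with -0.17 and -0.01, and COL2A1 with -0.33 and -0.23. The 4 smooth muscle markers that passed summed to 14.13 in the ligated left, against 14.18 in the normal left, and to 14.14 in the ligated right, against 14.01 in the normal right. Among them MYH11 differed by 1.99 in left and 1.87 in right ventricles. The others differed less, TAGLN by 0.58 and -0.04, MYLK by -0.05 and 0.08, and DES by -0.28 and 0.37. The part of these cell types in the ligation differences was not tested either.

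A test over all probe sets was made with limma on the 12 pool means, in which the single ligated pools borrow the spread of other conditions. Ligation over both ventricles gave 0 of 28 members with an adjusted p under 0.05 in limma, beside 0.00984% of the 20335 tested. The smallest adjusted p in limma among members was 0.109, for TPD52L1, with an estimate of 1.17 ± 0.12 (SE). At an unadjusted p under 0.05, 9 members passed, 32.1% of the 28, beside 13.7% of all tested. They were TPD52L1, AP1S3, VOPP1, the first probe set with no gene listed, GFI1B, the first NEFM member, SLITRK4 and TIMD4, which were higher, and LGR5, which was lower, with limma adjusted p between 0.109 and 0.334. The estimates were 0.60 for AP1S3, 0.54 for VOPP1, 1.15 for the probe set with no gene listed, 0.62 for GFI1B, 1.02 for NEFM, 0.59 for SLITRK4, 0.66 for TIMD4 and -0.73 for LGR5. None of the 9 passed the adjustment. The left difference of SLITRK4, 0.53, was 1.22 without array 1 and -0.16 without array 2. For TIMD4 the normal left and right E8 levels, 3.88 and 3.79, were under the filter level. Its left difference of 0.63 was 0.41 with a floor at the 50th percentile. The membership rule limited left minus right in the normal pools, and that difference enters the spread used by this fit. The shares of members and of all tested are therefore not like for like. No such share was taken for the 14089 probe sets within the limits.

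Further probe sets of member genes gave differences of 0.91 in left and 1.26 in right ventricles for SLITRK4, and of 0.54 and 0.53 for NPM3. A further TLE3 probe set differed by -1.42 and -0.97, beside -0.46 and -0.02 for the TLE3 member. Those of PRTG differed by 0.07 and -0.39, and of LRRC8D by 0.11 and -0.16. FAAP24 gave 0.004 and 0.22, and VOPP1 -0.02 and 0.02. The LHX9 probe sets gave 0.97 and -0.19, 0.07 and 0.02, and -0.02 and 0.01. In these TLE3 and VOPP1 probe sets, and in the LHX9 probe sets other than the first, all E8 levels were under the filter level. The first of these LHX9 probe sets measured 4.44 in the ligated left ventricle, against 3.47 in the normal left, which was under that level. The further PRPS2 probe set measured 6.39 in the ligated left ventricle, against 2.60 in the normal left, and 3.48 in the ligated right, against 3.45 in the normal right.

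Left and right ventricles differed little in the normal pools by the rule, and the ligated pools were compared to see whether that held after ligation. Ligated left minus ligated right lay between -0.52 and 1.85 with a median of 0.11 and was within 0.7 in 25 of the 28 members. In normal ventricles at E8 the median of left minus right was -0.08. PCDH8 measured 7.15 in the ligated left and 6.06 in the ligated right ventricle, beside 6.46 in the normal left and 6.53 in the normal right. By the 2-fold rule 2 members were higher in the ligated left than in the ligated right, PCDH8 and the second PRPS2 member, beside 1.07% of the filtered probe sets and 0.248% of those within the limits. The difference of 1.09 in PCDH8 was 0.98 without array 1, which ends its call. It called 0 members lower, beside 1.0% and 0.071%.

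The difference between the left and the right response to ligation was tested with limma, and 0 of 28 members passed at an adjusted p under 0.05, beside 0.00984% of the 20335. At an unadjusted p under 0.05 only the first NEFM member passed, 3.57% of the members, beside 1.38% of all tested. Its left response exceeded its right response by 1.0 ± 0.36 (SE), with a limma adjusted p of 1.0. A p that misses the threshold does not show that both sides responded alike. The limit on side in the membership rule enters the spread of this fit too, so its shares are not like for like either.

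Conotruncal banding was limited by the membership rule to 0.7 in either direction at E5, so its values are a description. Banded minus normal lay between -0.40 and 0.65 with a median of 0.19. AP1S3 measured 6.79 in banded and 6.14 in normal ventricles, the first SQLE member 9.79 in banded and 9.17 in normal ventricles, and LOC419677 8.16 in banded and 8.56 in normal ventricles. Of the 3 PRPS2 probe sets, the 2 members measured 2.78 and 3.55 in banded ventricles, against 2.56 and 2.99 in normal ventricles. The further one, which was past the banding limit, measured 5.39 in banded and 3.44 in normal ventricles. The summed level of the 4 liver markers was 11.43 in banded and 10.53 in normal ventricles at E5, and TTR alone measured 7.71 in banded and 3.37 in normal ventricles. The part of these markers in the PRPS2 values was not tested.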

How the data were processed

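Ventricle RNA was hybridised to one-colour expression arrays. The deposited table holds log2 values, from 0.14 to 16.09, for 38535 probe sets on 24 arrays. GCRMA and MAS5 are named in the submitters' processing notes; which of them made the table is not given in the sources, nor their versions. Background correction of the GCRMA kind presses low signals towards a floor.

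The values were used as deposited. The 2 technical arrays of each pool were averaged. For 38439 probe sets other than the 96 controls, 20335 with a highest pool mean at or above the 50th percentile, 4.09, were kept, all 28 members among them. Genes came from the platform annotation, which gave 1 gene for 27178 probe sets, several for 177 and none for 11180. Python 3.11.15, R 4.3.3 and limma 3.58.1 (lmFit, eBayes, two-sided) were used. The fit over 12 pools had stage and treatment as a factor and side coded 0.5, 0 and -0.5, with 4 residual degrees of freedom, or 3 with side by ligation, Benjamini-Hochberg adjustment over the kept probe sets, and a threshold of 0.05. The p-values measure spread between these pools only, none of which was replicated. The fits were run on simulated pools with independent noise and no differences between stages. That run checks that an added effect is returned in the estimates and does not support the p-values.

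Members and gene lists were chosen with earlier results of these data known, and the 7 family lists, sterol synthesis included, after the members were seen. A rule named the 12 widest falls from E4 to E10 and the 6 widest ligation differences in each direction. The other members are named because each is accounted for.

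Alternatives covered normalization, the floor on low values, the filter, single arrays, the limits of the rule and the limma settings. Array numbers did not pair the pools: over 66 pairs of pools, same-numbered arrays' deviations correlated between -0.0827 and 0.0772. The number of arrays limits the precision.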

Additional observations from a re-analysis of the deposited data

How the results depend on the processing

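The number of members depends on the limits of the rule: 82 probe sets had both falls with a limit of 0.7 instead of 1, 9 with 1.5, and 17 with a highest pool mean of at least 8. With E6 from the single-ventricle pools alone, which was chosen after seeing the data, 28 probe sets met the rule, of which 23 were members; CD38, LOC420807, one SQLE probe set and both PRPS2 members dropped out. Without 1 of the 2 arrays, the count lay between 23 and 28. At a 1.5-fold instead of a 2-fold rule, ligated against normal gave 10 members higher and 1 lower in the left ventricle, 6 higher and 1 lower in the right, and 4 higher in the ligated left than in the ligated right. The 2-fold count of 2 members higher in the ligated left than in the ligated right was 1 with a floor at the 50th percentile and 1 without the PRPS2 probe sets. For ligated against normal left ventricles, the 2-fold count of 4 higher was 3 with that floor and 3 without the PRPS2 probe sets. Without 1 array, the 2-fold count of 4 higher in the left lay between 5 and 6, that of 1 higher in the right between 1 and 2, and that of 0 lower in the right between 0 and 1. No share over all probe sets is given for the 1.5-fold and single-array counts, so they have no background to be read against. The median left difference of 0.34 was 0.32 after quantile normalization, 0.31 after median centring, 0.25 with the floor, 0.27 without PRPS2, and 0.31 to 0.32 without 1 array. The right median of 0.05 was 0.0258 after centring, 0.0482 with the floor, 0.0925 without PRPS2, and 0.0718 to 0.0782 without 1 array. The ligated left minus right median lay between 0.06 and 0.14 without 1 array. With array number as a replicate block, the counts of 4, 1 and 2 members and the medians of 0.34, 0.05 and 0.11 did not change. Each pool had 1 array of each number, so the block could not change the medians and is no check of them. Under every limma alternative 0 members passed the adjusted threshold, with 2 to 11 at an unadjusted p under 0.05 for ligation and 0 to 2 for side by ligation. The 70th percentile filter tested 15 members. Of 504 values of single members under the alternatives, 20 moved by more than the SD between arrays. Leaving out 1 array or adding the replicate block could not move a value past that SD. The count is therefore no check of those alternatives.

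Each condition had 1 pool, so variation between embryos was not measured, and 12 members were under the filter level at E10. Signals near the floor give no reliable size of a fall.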
